A study of Rattus norvegicus with 2 samples.

Results

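Potassium channel genes were examined in the left adrenal medulla of rats during insulin-induced hypoglycemia, and their members were chosen by symbol alone, as every gene that starts with Kcn and has a probe set annotated to no other gene. This gave 75 of the 14217 genes read by the array, through 126 probe sets. They comprised 31 voltage-gated (Kv) genes, 15 inward rectifier genes (Kcnj) with the ATP-sensitive KATP pore genes among them, 11 tandem-pore genes (Kcnk), 6 calcium-activated genes (Kcnm and Kcnn) and 12 accessory and other genes. Some potassium channel genes have no such probe set in the annotation used here, and they were not analysed here.

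Adult male Sprague-Dawley rats of the 2RH30 group had been given human insulin at 2 IU/kg intraperitoneally, 2 times daily over 3 days, whereas rats of the 2RS30 group had been given saline. The methods of the study state that day 3 had only 1 injection. Both groups then underwent a hyperinsulinemic-hypoglycemic clamp on day 4 after an overnight fast, and were sacrificed 30 min after the target glucose (40 to 50 mg/dL in the labels) was reached, so hypoglycemia and high insulin at sampling are common to both. RNA of 6 rats was pooled per group and hybridized to 1 array per group. No value below therefore has a replicate error or a test, the spread between animals is not known, and every difference is one between 2 pools.

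Potassium channels set the resting potential of a cell and end its action potentials. In chromaffin cells, which release epinephrine and norepinephrine when splanchnic nerve endings excite them, background channels of the Kcnk class hold the membrane near rest, Kv and large-conductance calcium-activated (BK) channels repolarize each spike, small-conductance calcium-activated (SK) channels produce the slow afterhyperpolarization, and KATP channels open when cellular ATP is low. Most of these channels are assemblies of pore-forming subunits with accessory subunits that alter gating or transport to the surface.

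All values are log2 and all differences are 2RH30 minus 2RS30. Where a gene has several probe sets, the one brightest on average stands for it. Probe sets differ in how strongly they bind, so the values do not show which of 2 genes has more RNA. They were still compared across genes to sort genes by the array median, to choose genes to name and to find genes of similar level. Shares given of the 500 genes nearest in level count differences as large in either direction. The difference rose with the level over all probe sets, with a median of -0.38 among the weakest of 20 bins of level and of 0.49 among the strongest, and a level-adjusted difference, with this trend removed by lowess, is given beside the deposited one. Values were spread more widely in 2RH30 (SD 1.57 over probe sets) than in 2RS30 (SD 1.28), and the bioB hybridization controls, bacterial transcripts added to the mix, were lower in 2RH30, with differences of -3.51 to -3.03. The mean difference was -2.63 for BioC, -1.74 for BioDn and -0.51 for CreX, the brighter controls. Their part in the results was not tested. Probe sets of the same gene scattered with an SD of 0.80 at mean levels from 5 to 7, and of 0.55 from 7 upward. Among Kcn genes the SD was wider, at 1.13 (level-adjusted 1.08), over probe sets above the median on at least 1 array. Single genes are set against this scatter below, which says nothing of how animals vary.

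The tissue was checked by its markers. Of 11 measured chromaffin cell markers, among them Th, Dbh and Pnmt of catecholamine synthesis, 11 lay above the median on both arrays, and their summed linear signal was 8483 in 2RS30 and 12275 in 2RH30. The same held for 9 of 9 measured markers of the adrenal cortex, among them Star and Cyp11b1, with sums of 21372 and 34035, so cortical RNA was present in both pools. The chromaffin markers had a median difference of 0.51 (level-adjusted 0.09) and the cortical markers one of 0.61 (level-adjusted 0.04). Their part in the results was not tested, and fewer cells of a type cannot be told apart from less RNA per cell.

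As a whole, potassium channel genes were 2-fold or more different between the pools about as often as other genes were. As deposited, 7 of 75 were 2-fold or more higher in 2RH30 (9.33%, against 11.5% of all genes) and 5 were lower (6.67%, against 9.62%). Level-adjusted, 6 were higher (8%, against 8.95%) and 8 were lower (10.7%, against 9.31%). These shares lie near the background and are not a result about the potassium channel genes. The median difference of the 75 genes was -0.04 as deposited and -0.13 level-adjusted, where that of all genes was 0.11 and 0.02.

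Many of these genes gave weak signals. Of the 75, 33 lay above the array median on both arrays (44.0%, against 50.8% of all genes), 14 lay above it on 1 array and 28 lay below it on both (37.3%, against 30.6%) and are called dim. The dim share was 14 of 31 in the Kv class, 5 of 15 in Kcnj, 3 of 11 in Kcnk, 2 of 6 in Kcnm and Kcnn, and 4 of 12 among the accessory genes. Among the 47 genes that were not dim, 6 were 2-fold or more higher (12.8%, against 15.0% of all genes that were not dim) and 4 were lower (8.51%, against 7.63%). Level-adjusted the balance turned, with 4 higher (8.51%, against 9.67%) and 7 lower (14.9%, against 10.4%). A gene above the median on 1 array only had to differ to some degree to be so placed, so these counts support nothing by themselves. Among the 33 genes above it on both arrays, 3 were higher (9.09%, against 10.4% of all such genes) and 2 were lower (6.06%, against 2.10%). Level-adjusted, 1 of the 33 was higher (3.03%, against 4.22%) and 4 were lower (12.1%, against 5.37%).

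**Figure D1:**
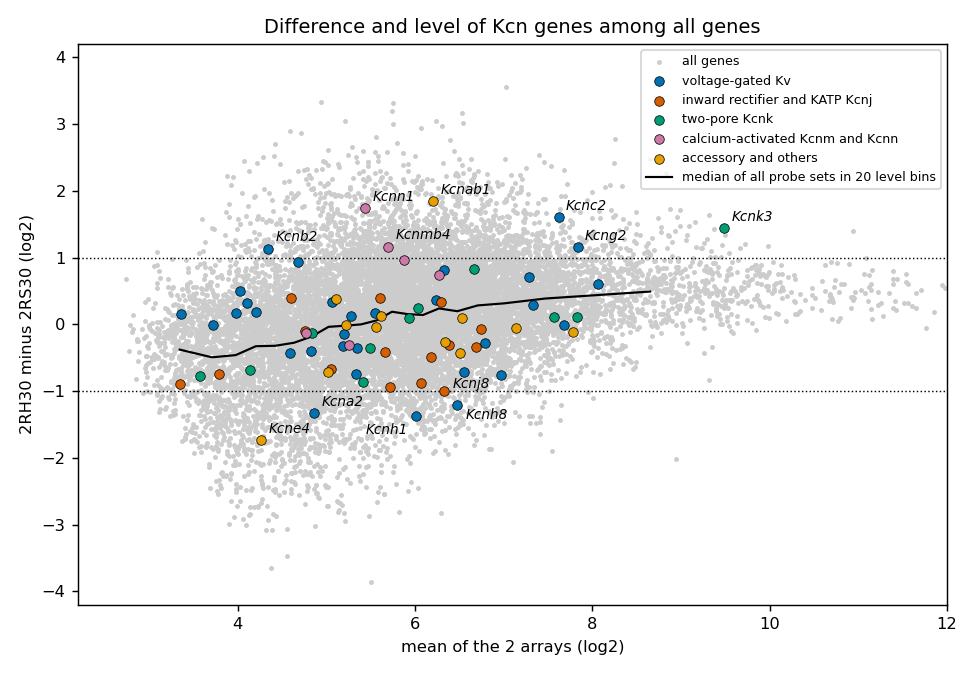
Difference of 2RH30 minus 2RS30 (log2, vertical axis) against the mean of the 2 arrays (log2, horizontal axis) for all genes (grey) and the 75 Kcn genes, coloured by class. Genes with a mean above 12 lie outside the axis. The black line joins the medians of all probe sets in 20 level bins, from -0.38 to 0.49, and dotted lines mark a 2-fold difference. Kcnk3 lies at a difference of 1.44 and at the right-hand end of the Kcn genes, and most Kcn genes lie between the dotted lines.

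The classes differed in where their values lay. Of the 15 Kcnj genes, 12 were lower in 2RH30 as deposited and 11 level-adjusted, against 43.8% and 48.8% of all genes, and the class median was -0.41 (level-adjusted -0.52). The 6 calcium-activated genes had a median of 0.86 (level-adjusted 0.68), the 31 Kv genes one of 0.16 (level-adjusted 0.13), the 11 Kcnk genes one of 0.10 (level-adjusted -0.27) and the 12 accessory and other genes one of -0.05 (level-adjusted -0.27). The sign of the Kcnk median thus depends on the adjustment. Averaging the probe sets of each gene lowered the calcium-activated median to 0.42 (level-adjusted 0.44) and took the Kv median to -0.01 (level-adjusted -0.08), so the sign of the Kv median is not settled. By probe set, 4 of 8 calcium-activated values were lower in 2RH30 (50.0%, against 45.4% of all probe sets named for 1 gene). No test of the difference between classes was possible with 1 array per group.

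**Figure D2:**
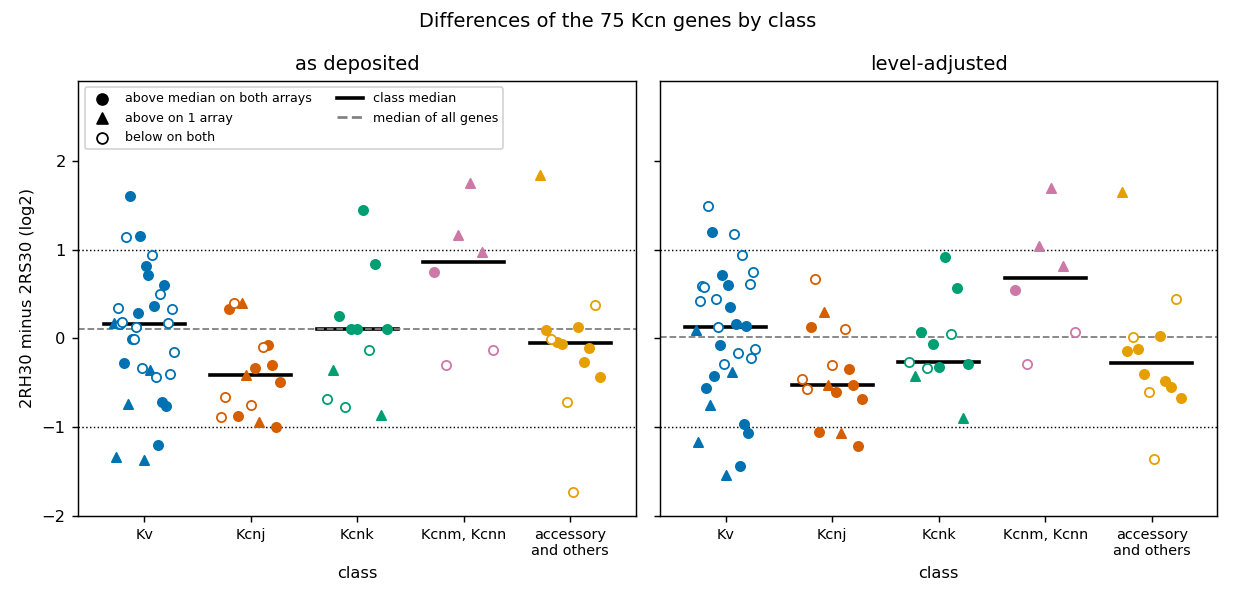
Difference of 2RH30 minus 2RS30 (log2, vertical axes) for each of the 75 Kcn genes in 5 classes (horizontal axes), as deposited (left) and level-adjusted (right). Filled circles are genes above the array median on both arrays, triangles above it on 1 array, and open circles dim genes. Thick lines are class medians, the dashed line is the median of all genes, and dotted lines mark a 2-fold difference. The Kcnj median is -0.41 as deposited and -0.52 level-adjusted, and the Kcnm and Kcnn median 0.86 and 0.68.

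Promoter sequence was read for the Kcn genes from RefSeq (GRCr8), as the 250 bases before each listed start, and 52 of the 75 genes were matched, with 58 starts. The median GC content was 62.0%, against 51.2% over 33469 starts of all genes. A GC box (GGGCGG on either strand) stood in 32 of 58 (55.2%, against 30.5%), a short cAMP response element (TGACG, either strand) in 12 (20.7%, against 18.2%), and a TATA box (TATAAA, either strand) in 2 (3.45%, against 12.9%). The full cAMP response element (TGACGTCA, which holds the short one) stood in 0, against 1.59% of all starts, and a heat shock element (GAANNTTC) in 0, against 7.23%. These are letter matches and not sites of binding.

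Some of these sequences are shown, 5′ to 3′ on the strand of the gene, for Kcng2, higher in 2RH30 by all its probe sets, and for Kcnj8 and Kcnh8, the 2 genes above the median on both arrays that were 2-fold or more lower as deposited. Capitals mark GC boxes and short cAMP response elements on either strand. The Kcng2 stretch (chr18:76083689-76083938, minus strand) holds 2 GC boxes, the Kcnj8 stretch (chr4:177246549-177246798, minus strand) holds 1, and the Kcnh8 stretch (chr9:5742433-5742682, plus strand) holds 1 GC box and 1 short cAMP response element. Their GC contents are 72.8%, 66.8% and 65.6%.
Kcng2: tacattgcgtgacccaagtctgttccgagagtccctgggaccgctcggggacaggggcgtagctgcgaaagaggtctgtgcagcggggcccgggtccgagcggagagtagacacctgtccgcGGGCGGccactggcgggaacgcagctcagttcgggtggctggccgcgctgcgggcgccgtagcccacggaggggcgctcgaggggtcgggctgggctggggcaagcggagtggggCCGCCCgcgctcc
Kcnj8: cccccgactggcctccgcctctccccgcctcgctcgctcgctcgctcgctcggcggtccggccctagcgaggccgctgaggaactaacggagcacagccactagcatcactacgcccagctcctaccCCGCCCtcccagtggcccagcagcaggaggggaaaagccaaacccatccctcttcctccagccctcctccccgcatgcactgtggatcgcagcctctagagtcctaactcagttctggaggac
Kcnh8: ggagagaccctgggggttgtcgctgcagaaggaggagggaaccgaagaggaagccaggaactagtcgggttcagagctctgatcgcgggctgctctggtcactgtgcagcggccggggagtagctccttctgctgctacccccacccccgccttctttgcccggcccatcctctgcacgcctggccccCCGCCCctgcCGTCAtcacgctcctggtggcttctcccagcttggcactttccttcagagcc

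Among tandem-pore genes, the background channels that carry leak current at rest, Kcnk3 had 3 probe sets that went the same way. Kcnk3 encodes TASK-1, an acid-sensitive leak channel known from chromaffin cells and from the adrenal cortex. Its brightest probe set read 8.77 in 2RS30 against 10.21 in 2RH30, which is a difference of 1.44 or 2.72-fold (level-adjusted 0.92). The other probe sets read 7.14 and 7.94 (difference 0.80, level-adjusted 0.40), and 7.52 and 8.29 (difference 0.77, level-adjusted 0.33). All 3 were higher in 2RH30 by more than the 0.55 that probe sets of a gene scatter at this level, but after level adjustment only the brightest was. Only the brightest exceeded the wider scatter of 1.13 among Kcn genes, and none exceeded it level-adjusted (1.08). Of the 500 genes nearest in mean level, 3.60% had a deposited difference as large as that of the brightest probe set, and 5.2% a level-adjusted one. Beside this, the 9 cortical markers differed by 0.33 to 0.80 and the 11 chromaffin markers by 0.23 to 1.18.

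The other acid-sensitive genes of the class differed by less. Kcnk9, which encodes TASK-3, read 7.51 in 2RS30 and 7.62 in 2RH30 (difference 0.11, level-adjusted -0.29). Kcnk5, which encodes TASK-2, read 6.25 and 7.09 (difference 0.84, level-adjusted 0.57), so it was higher in 2RH30 too. Kcnk2, which encodes the stretch-sensitive TREK-1, read 7.77 and 7.88 in its brighter probe set, a difference of 0.11 against -0.10 in the other probe set. The pools were thus close for Kcnk9 and Kcnk2, within the scatter between probe sets. As deposited, Kcnk3 was the only Kcnk gene with a 2-fold difference, and level-adjusted there was 0. Kcnk6, which encodes TWIK-2, read 5.85 and 4.99 (difference -0.86), above the median in 2RS30 only, while its dim probe set differed by 0.35, and the dim Kcnk1, which encodes TWIK-1, read 4.48 and 3.79. The remaining members that were not dim, Kcnk10, Kcnk12 and Kcnk15, had differences between -0.36 and 0.25, although a second probe set of Kcnk10 differed by 0.61.

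Inward rectifiers pass current more easily into the cell than out of it and stabilize the resting potential. Of the 7 Kcnj genes above the median on both arrays, 6 were lower in 2RH30 and Kcnj11 was higher, where 32.0% of all such genes were lower as deposited and 51.7% level-adjusted. Kcnj5 was lower by little, at -0.07. Kcnj8, which encodes the Kir6.1 pore of vascular KATP channels, read 6.82 in 2RS30 against 5.82 in 2RH30, which is a difference of -1.0 (level-adjusted -1.21), from 1 probe set. This was the only Kcnj gene 2-fold or more lower as deposited, just past the threshold. Of the 500 genes nearest in level, 19.0% differed by as much, whether higher or lower. The smooth muscle and pericyte markers, cells in which Kcnj8 is known to be active, had a median difference of -0.06 over 8 genes. Of these, 4 were above 0 and 4 below, where 56.1% and 43.8% of all genes were. Their summed linear signals were 704 in 2RS30 and 781 in 2RH30. Kcnj13, which encodes Kir7.1, read 6.50 and 5.63 (difference -0.88, level-adjusted -1.06).

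Kcnj11, which encodes the Kir6.2 pore of the KATP channel of endocrine cells, gave conflicting values. The probe set with the highest value in 2RS30 read 7.04 there and 5.41 in 2RH30 (difference -1.62), whereas the one with the highest mean read 6.12 and 6.46 (difference 0.33). The third, which was dim, differed by -0.72. The direction of Kcnj11 therefore depends on the probe set. Of the sulfonylurea receptors that complete KATP channels, Abcc8 (SUR1) read 6.32 and 6.11, a difference of -0.21. Abcc9 (SUR2) read 5.76 and 6.89 in its brightest probe set, a difference of 1.14, but its dim probe sets differed by -2.16 and -0.04.

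The G protein-gated members, through which receptors coupled to inhibitory G proteins hyperpolarize cells, were on the lower side. Kcnj5 read 6.77 in 2RS30 and 6.70 in 2RH30 (difference -0.07), and in its other probe set 5.83 and 5.05 (difference -0.78). Kcnj6 differed by -0.30 in the probe set with the highest mean, from 6.53 to 6.23, and by -2.42 in another of nearly equal 2RS30 value, from 6.53 to 4.11. Its 2 dim probe sets differed by -1.52 and -0.45, so that all 4 were lower in 2RH30, by amounts that do not match. Kcnj9 read 6.42 and 5.93 (difference -0.49), and Kcnj3 read 6.19 and 5.25 (difference -0.94), with its other probe sets at -0.89 and 0.49. Kcnj2, a strong inward rectifier, read 6.85 and 6.52 (difference -0.33). Counted by probe set, 21 of the 26 Kcnj probe sets were lower in 2RH30 (80.8%, against 45.4% of all probe sets named for 1 gene), and 20 were level-adjusted (76.9%, against 47.8%). With the mean over the probe sets of each gene, 13 of 15 genes were lower, against 6486 of all 14217 genes. Level-adjusted, 12 of the 15 were lower, against 6698 of all genes. Probe sets of the same gene are not independent, and no single Kcnj gene with several probe sets showed a 2-fold difference as deposited in its brightest probe set. Level-adjusted, Kcnj3 did, at -1.07, in a probe set above the median in 2RS30 only.

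**Figure D3:**
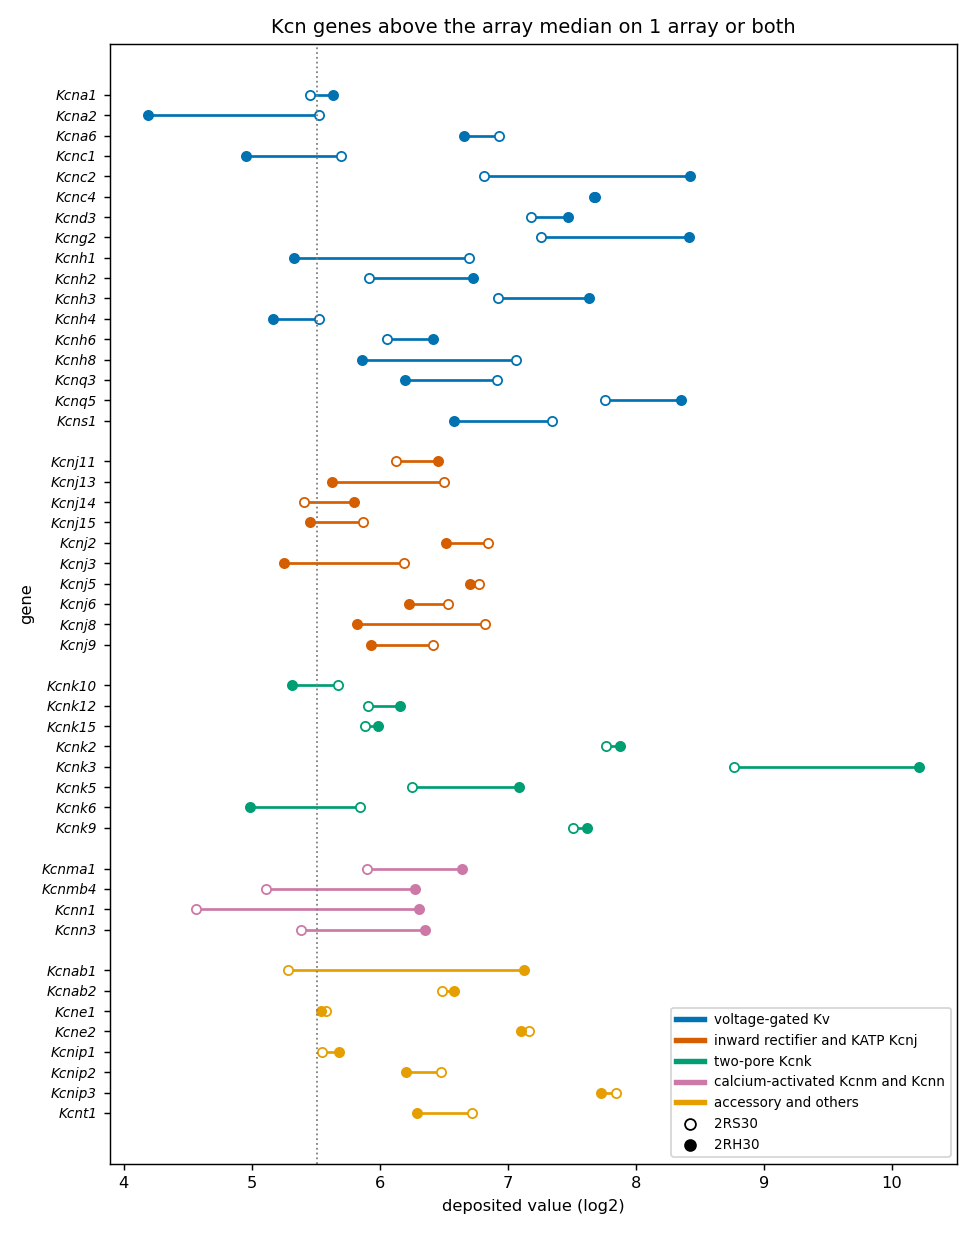
Deposited value (log2, horizontal axis) of each of the 47 Kcn genes that were not dim (vertical axis), in 2RS30 (open) and 2RH30 (filled), coloured by class. The dotted line marks the array median. Of 10 Kcnj genes, 8 have the filled point to the left, where 36.1% of all genes that were not dim were lower. The 4 Kcnm and Kcnn genes have it to the right, where 63.9% of all such genes were higher. Of these 4, 3 count as not dim only through 2RH30.

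Calcium-activated channels couple calcium entry during a spike to repolarization. Kcnma1, which encodes the BK pore, read 5.90 in 2RS30 and 6.65 in 2RH30 (difference 0.74, level-adjusted 0.54) in its brightest probe set. Its next probe set read 5.63 and 5.43 (difference -0.20) and the dim one 4.57 and 3.06 (difference -1.51), so its direction differed between probe sets. Kcnmb4, a BK accessory subunit known mainly from neurons, read 5.11 and 6.28, a difference of 1.17 (level-adjusted 1.04). Kcnmb1, the BK accessory subunit of smooth muscle, was dim at 5.41 and 5.10.

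The SK genes with signal were both higher in 2RH30. Kcnn1 (SK1) read 4.56 in 2RS30, below the array median, against 6.31 in 2RH30, so that it differed by 1.75 or 3.35-fold (level-adjusted 1.70). Of the 500 genes nearest in level, 6.60% differed by as much. Kcnn3 (SK3) read 5.38 and 6.36 (difference 0.97, level-adjusted 0.81). Kcnn4, the intermediate-conductance channel of blood cells and epithelia, was dim at 4.84 and 4.71 (difference -0.13, level-adjusted 0.07). Both dim genes of the class were thus lower in 2RH30 as deposited, where 61.4% of all dim genes were. Kcnmb4, Kcnn1 and Kcnn3 have 1 probe set each and were above the median in 2RH30 only, which means that they count as not dim through the array where they are high. The macrophage markers are given because Kcnn4 is known from immune cells. They were higher for 7 of 9 genes, where 56.1% of all genes were, with a median difference of 1.10. Csf1r and Ptprc went the other way, at -0.77 and -0.71. The summed linear signals were 457 in 2RS30 and 878 in 2RH30. The part of macrophages in these values was not tested.

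Voltage-gated genes went both ways. Kcng2, whose upstream sequence is shown above, encodes an electrically silent subunit that modifies Kv2 channels. It had 3 probe sets that were all higher in 2RH30. In order of level they read 7.26 and 8.41 (difference 1.15, level-adjusted 0.72), 5.90 and 6.88 (difference 0.98, level-adjusted 0.75), and 5.78 and 6.59 (difference 0.81, level-adjusted 0.61). Level-adjusted, the first exceeded the scatter of 0.55 at its level, and the others stayed under the 0.80 at theirs. All 3 stayed under the level-adjusted scatter of 1.08 among Kcn genes. Of the 500 genes nearest in level, 9.8% had a deposited difference as large as that of the brightest probe set, and 16.6% a level-adjusted one. Among Kcn genes, only Kcna6, Kcng2 and Kcnk3 had 3 probe sets that were not dim. Those of Kcng2 and Kcnk3 were all higher, before and after level adjustment, and those of Kcna6 were not. Of all 2539 genes with at least 2 such probe sets, 1093 had all of them higher as deposited and 623 level-adjusted. Of the 19 such Kcn genes, 4 did as deposited and 3 level-adjusted. Kcng3, another silent subunit, was dim at 5.35 in 2RS30 and 5.02 in 2RH30. The silent subunit gene Kcns1 read 7.34 and 6.58 (difference -0.76, level-adjusted -1.07).

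Kcnc2 encodes Kv3.2, a fast channel that shortens action potentials. Its brightest probe set went from 6.82 in the saline pool to 8.42, a difference of 1.61 (level-adjusted 1.2) reached by 2.40% of the 500 genes nearest in level. The other 5 probe sets of the gene were all lower in 2RH30, with differences of -1.57 to -0.24, and 4 of them were dim. The mean over its probe sets was -0.44. Kcnc4 (Kv3.4) was read alike in both pools by 1 probe set, at 7.68 and 7.67, but went from 8.04 to 6.63 in the other, a difference of -1.41. Kcnc1 (Kv3.1) read 5.70 and 4.96 (difference -0.74).

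Members of the ether-a-go-go family of Kv channels went both ways, with 4 of 8 higher and 4 lower in 2RH30. Of all genes, 56.1% were higher and 43.8% lower, so this split lies near the background. Kcnh1 (EAG1) read 6.70 in 2RS30 against 5.33 in 2RH30, which is a difference of -1.37 (level-adjusted -1.55). Kcnh8 (ELK1) read 7.07 and 5.86, a difference of -1.20 (level-adjusted -1.44). Both have 1 probe set and exceed the scatter between probe sets of 0.80, and that of 1.13 among Kcn genes. Kcnh1 was above the median in 2RS30 only, which means that it counts as not dim through the array where it is high. Kcnh2, which encodes the hERG channel, differed the other way, from 5.92 to 6.73 (difference 0.81, level-adjusted 0.60), as did Kcnh3, from 6.92 to 7.64 (difference 0.71, level-adjusted 0.35). The dim Kcnh5 had a level-adjusted difference of 1.17, from 4.21 to 5.15.

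The M-current genes, whose channels close on muscarinic stimulation and so raise excitability, did not move together. Kcnq3 read 6.91 in 2RS30 and 6.20 in 2RH30 (difference -0.72), but 5.69 and 6.14 in its other probe set (difference 0.45). Kcnq5 read 7.76 and 8.36 (difference 0.60, level-adjusted 0.14), with 0.24 in its next probe set and -0.57 in a dim one. Of the Kcna genes, Kcna2 read 5.53 and 4.19 (difference -1.33, level-adjusted -1.17) in a probe set above the median in 2RS30 only. Its dim probe set differed by -1.06. Kcna6 differed by -0.28, 0.18 and -2.58 in its 3 probe sets. Kcnd3, an A-type channel gene, read 7.18 and 7.47 (difference 0.29, level-adjusted -0.08), but its dim probe sets differed by -0.41 and -1.11. The dim Kcna4 read 3.27 and 3.43, and the dim Kcnb2 read 3.77 and 4.91 (difference 1.14, level-adjusted 1.49).

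Accessory subunits bind the pore proteins and change their gating or number at the surface. Kcnab1, a cytoplasmic beta subunit that speeds inactivation of Kv1 channels, read 5.28 in 2RS30 against 7.13 in 2RH30, which is a difference of 1.85 (level-adjusted 1.65) that 1% of the 500 genes nearest in level reached. Its other probe set went the opposite way, from 6.08 to 4.98 (difference -1.10). Each of these probe sets was above the median only on the array where it was higher. Kcnab2 read 6.48 and 6.58, with its dim probe sets at 0.37, -0.72 and -0.70. The KChIP genes encode calcium sensors of Kv4 channels, and Kcnip3 (DREAM) also represses transcription. It read 7.84 and 7.73 (difference -0.12, level-adjusted -0.55), but its other probe set read 3.41, under the 5th percentile of the 2RS30 array (3.67), but 6.52 in 2RH30, 3.11 higher. Kcnip2 read 6.48 and 6.21 (difference -0.27), with -0.90 and 0.36 in its dim probe sets. Kcnip1 read 5.55 and 5.68 (difference 0.13), with 0.89 and 0.47 in its others.

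All 4 Kcne genes, which encode small single-span subunits of Kv channels, were lower in 2RH30, with differences of -1.74 to -0.04, where 43.8% of all genes were lower. Kcne1 and Kcne2 differed by only -0.04 and -0.06, and Kcne3 and Kcne4 were dim. Kcne2 read 7.17 in 2RS30 and 7.11 in 2RH30, and 5.55 and 2.98 in a second probe set whose 2RH30 value falls below the 5th percentile there (3.16). The dim Kcne4 read 5.13 and 3.40, a difference of -1.74 (level-adjusted -1.36). It was the lowest of the 75 genes as deposited, whereas level-adjusted Kcnh1 and Kcnh8 were lower. Kcnt1, a sodium-activated channel gene, differed by -0.43 from 6.72 to 6.29, and by 0.24 in its other bright probe set.

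Agreement between probe sets was poorer than the single values convey. Of the 75 genes, 44 have 1 probe set and 31 have 2 to 6. Of 19 Kcn genes with at least 2 probe sets that were not dim, 8 had all of these on the same side of 0 (42.1%, against 53.6% of 2539 genes), and again 8 level-adjusted (42.1%, against 43.6%). As deposited, Kcng2, Kcnk3, Kcnip1 and Kcnq5 were higher throughout, and Kcnc4, Kcne2, Kcnj5 and Kcnj6 lower. The SD between probe sets of the same gene was 1.13 over the 41 probe sets of these 19 genes, against 0.82 over all genes.

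**Figure D4:**
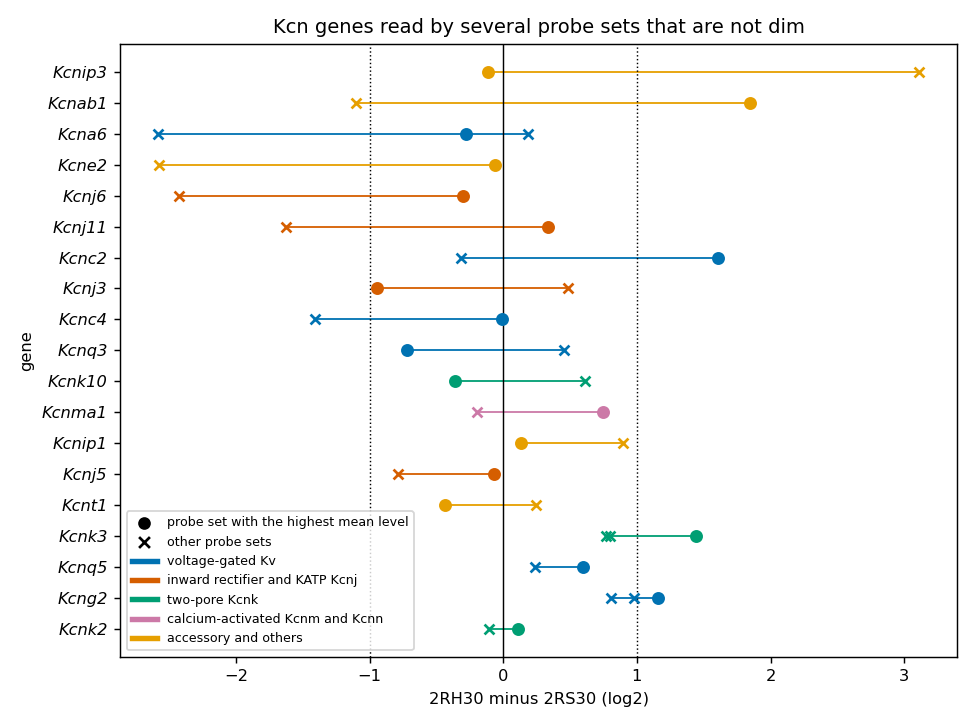
Difference of 2RH30 minus 2RS30 (log2, horizontal axis) for each probe set that was not dim of the 19 Kcn genes with at least 2 of them (vertical axis, ordered by range). Filled points are the probe set with the highest mean level, crosses the others, dotted lines a 2-fold difference. The points of Kcng2 lie between 0.81 and 1.15 and those of Kcnk3 between 0.77 and 1.44, whereas those of Kcnip3 span -0.12 to 3.11.

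Partner genes outside the Kcn symbols were read as well. Of 19 listed, 13 were measured, with a median difference of 0.09 (level-adjusted -0.15), 1 of them 2-fold or more higher as deposited (Abcc9, above) and 1 lower, where 11.5% and 9.62% of all genes were. Level-adjusted, 0 were higher and 1 was lower. The lower gene was Amigo1, an accessory subunit of Kv2 channels, which read 7.36 in 2RS30 against 5.55 in 2RH30, which is a difference of -1.81 (level-adjusted -2.04) from 1 probe set. Dpp6, which speeds Kv4 channels, differed by -0.49 in its brighter probe set, from 7.73 to 7.24, and by 0.78 in the other. The cation channel genes Hcn2, Hcn3 and Hcn4 differed by 0.10, 0.82 and 0.31. Of the sodium pump subunits, Atp1b1 read 8.20 and 7.80, but 7.64 and 7.72 in its other probe set. Atp1b3 read 6.98 and 7.05, and the BK accessory gene Lrrc26 read 5.07 and 5.71. The dim partners were Dpp10 with a difference of -0.48, Lrrc38 with 0.09 and Atp1b2 with 0.30, whose other probe set differed by 1.23.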

How the data were processed

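Total RNA from the left adrenal medulla was pooled from 6 rats per group, and each of 2 pools was hybridized to 1 Affymetrix Rat Genome array. The authors deposited log2 values, 1 per probe set and array. Their processing notes name Affymetrix Expression Console. The methods of the study name GCRMA in Partek for the analysis and describe the deposited data as quantile-normalized. The 2 columns used here differ in SD (1.28 in 2RS30, 1.57 in 2RH30) and in 95th percentile (7.72 and 8.16). As probe set values they are therefore not quantile-normalized to each other. How they were summarized is not settled. That they are log2 was read from their range. The arrays hold 31099 probe sets, of which 57 are controls and were left out. The platform annotation named 1 gene for 20826 probe sets, several for 436 and none for 9780, and symbols were updated by gene number through RefSeq for GRCr8, which matched 126 of 126 Kcn probe sets.

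The difference was the value of 2RH30 minus that of 2RS30, counted at 2-fold. The study used the same fold limit, but its results add a P-value limit. Its comparison of 2RH30 was with the recurrent hypoglycemia group before the clamp, and not with 2RS30. Level adjustment fitted the difference against the mean of both arrays by lowess (fraction 0.3, 3 iterations) and took the residual. The step was tried on simulated data with less noise than the spread of differences here and with planted differences well above 2-fold. That trial therefore says nothing of how reliable the 2-fold counts are. The number of arrays limits the precision, and no model was fitted. Classes followed the symbol prefix. Named were the 3 Kcn genes with the highest mean level in each class, genes 2-fold different as deposited or level-adjusted, 23 genes listed for their role in chromaffin cells or named in the study (5 of them not analysed here), genes whose probe sets conflict, and the 13 measured of 19 listed partner genes. Further Kcn members of the same families are named to complete them. Members, lists and tests were chosen with earlier results of these data known. Alternatives were median centring, quantile normalization, the lowess adjustment, the mean over probe sets, omission of probe sets marked as matching more than 1 transcript, other limits for dim genes and other fold thresholds. Python 3.11.15, pandas 2.3.3, numpy 2.4.6, statsmodels 0.14.6 and matplotlib 3.10.9 were used.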

Additional observations from a re-analysis of the deposited data

How the results depend on the processing

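Of the genes that were not dim, 6 were 2-fold or more higher in 2RH30 and 4 lower as deposited. These are 12.8% and 8.51%, against 15.0% and 7.63% of all such genes. The lower count was 7 after quantile normalization and 7 after lowess (14.9%, against 10.4%). The higher count was 4 after lowess (8.51%, against 9.67%). When a gene counted as dim if it was under the median on either array, 33 genes remained. Of these, 3 were higher (9.09%, against 10.4% of all such genes) and 2 lower (6.06%, against 2.10%). Joined with lowess, 1 was higher (3.03%, against 4.22%) and 4 were lower (12.1%, against 5.37%). Both joined settings were chosen after seeing the data. At 1.5-fold 12 were higher and 10 lower, and at 3-fold 3 and 0, which follows from the threshold. Lowess joined with averaging over a gene's probe sets gave 3 higher and 8 lower. Averaging alone left 37 genes that were not dim. Shares over all genes were not computed for averaging, quantile normalization or the other fold thresholds. Those counts therefore say nothing particular to the Kcn genes. The median of all these genes, -0.01, was -0.32 after quantile normalization, -0.33 after lowess, -0.26 after lowess with the mean and -0.29 after lowess with dim on either array. The Kv median, -0.01, was -0.34 after quantile normalization, -0.38 after lowess, -0.36 when probe sets were averaged, -0.38 when lowess was joined with that and 0.33 with dim on either array, so its sign is not settled. The Kcnj median, -0.37, was -0.73 after lowess with averaged probe sets. After lowess with dim on either array the Kcnm and Kcnn median, 1.07, was 0.54 (1 gene) and the accessory median, -0.05, was -0.40. The remaining medians moved by less than the SD between probe sets divided by the square root of the number of genes. Kcnc2 changed sign with the mean over probe sets, from 1.61 to -0.44, and to -0.39 when joined with lowess. Lowess and quantile normalization each changed the sign of 10 of the 75 genes, and averaged probe sets that of 10, among them Kcnma1 (0.74 to -0.32), Kcnj11 (0.33 to -0.67), Kcnip3 (-0.12 to 1.5) and Kcnd3 (0.29 to -0.41). Of the other values of single genes, 425 stayed within the SD between probe sets of their main value and 21 did not. Many of these values could not move. Averaging alone leaves the 44 genes with 1 probe set unchanged, and median centring shifts all genes alike. A value that stayed within this SD may also have changed sign. The count of 425 therefore does not show that the values are stable. Beyond what the settings do by construction, the cause was not tested. No paired analysis was possible because there is only 1 array per group, and for that reason no replicate could be left out. No background reading accompanies the values, so a detection limit for dim genes cannot be stated.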
